A study of Homo sapiens with 30 samples.

Results

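The regions described here are the chromatin immunoprecipitation (ChIP-seq) peaks called around MYC and PVT1, in a window of 1.5 Mb from 128.0 to 129.5 Mb of chromosome 8 in the genome build hg19. They were taken by position, as every peak region that overlaps this window in any of 8 peak lists. The members and lists themselves were chosen with earlier results of these data known. The window held 19 regions, of which 14 were CTCF, 4 TET1, 1 MBD3 and 0 TET2. All 19 came from the lists without indole-3-acetic acid (IAA). The 4 lists with IAA had 0 regions in the window, of 63 CTCF, 50 MBD3, 325 TET1 and 3022 TET2 regions in all. In the lists without IAA there were 42925 CTCF, 6608 MBD3, 16246 TET1 and 1326 TET2 regions in all.

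The cells were HEK293T, an established line from human embryonic kidney, with CTCF edited so that auxin can trigger its degradation. In both conditions the rest of the degradation system came from plasmids transfected beforehand, pcDNA3.1-ScFv-miniIAA7-mEGFP and pcDNA3.1-AtAFB2-mCherry. They were then kept for 72 h with 0.5 mM of the auxin IAA or without it, a condition that one label calls DMSO. Each list pools the 3 samples of its group, so no value has a replicate error and no difference was tested across cultures.

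MYC encodes a basic helix-loop-helix transcription factor that drives cell growth and division. Its neighbour PVT1 is a long noncoding RNA gene that hosts several microRNAs. The long intervals on either side of MYC are known for distal enhancers that act on it in different tissues, and a CTCF site just upstream of its promoter is known as an anchor of loops to such enhancers. CTCF is the zinc-finger protein that, with cohesin, anchors chromatin loops. MBD3 belongs to NuRD, a complex that moves nucleosomes and removes histone acetyl groups, and TET1 and TET2 are enzymes that oxidise methylated cytosine. In the order of the RefSeq gene table, PCAT1, PRNCR1, CASC19, CCAT1, CASC21, CASC8, CCAT2, POU5F1B and CASC11 precede MYC, and PVT1, MIR1204, MIR1205, MIR1206, MIR1207, MIR1208 and LINC00824 follow it. POU5F1B is a protein-coding retrocopy of the pluripotency gene POU5F1, and the others apart from the microRNAs are long noncoding RNA genes. That table is in another build, GRCh38.p14, so it gave names and order only. Positions of genes in hg19 are those of the window's definition, with MYC at about 128.748 to 128.754 Mb and PVT1 at about 128.81 to 129.11 Mb. Distances are from a region's summit to the MYC start, to the nearest kb, and exons and introns were not assigned.

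CTCF regions were fewer per Mb and weaker around MYC than across the genome. The 14 regions make 9.33 per Mb, against 12.5 per Mb on chromosome 8 and 13.9 per Mb on chromosomes 1 to 22 and X, where lengths run to the highest listed position. The median of the 13 gaps between neighbouring CTCF regions inside the window was 33.6 kb. The median was 40.8 kb on chromosome 8 and 33.1 kb on chromosomes 1 to 22 and X. The gap across each edge of the window is left out. The next CTCF regions lay 111 and 201 kb beyond the edges, so both gaps left out are longer than the window's median. The gaps inside the window therefore do not show that its spacing was like that of the genome. Strength is given as fold enrichment over the control, the value of the authors' peak caller, and as its −log10 q. Both are used only within 1 list. The median CTCF fold in the window was 7.15 (quartiles 5.44 and 10.7), against 13.5 on chromosome 8 (quartiles 7.68 and 23.2) and 13.6 in the whole list (quartiles 7.43 and 24.2). These differences are descriptions with no test. When the whole CTCF list was cut into 10 deciles by fold, 7 of the 14 lay in the weakest 2 and 0 in the strongest. Of these 14, 7 had their summit below the MYC start and 7 above it.

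**Figure D1:**
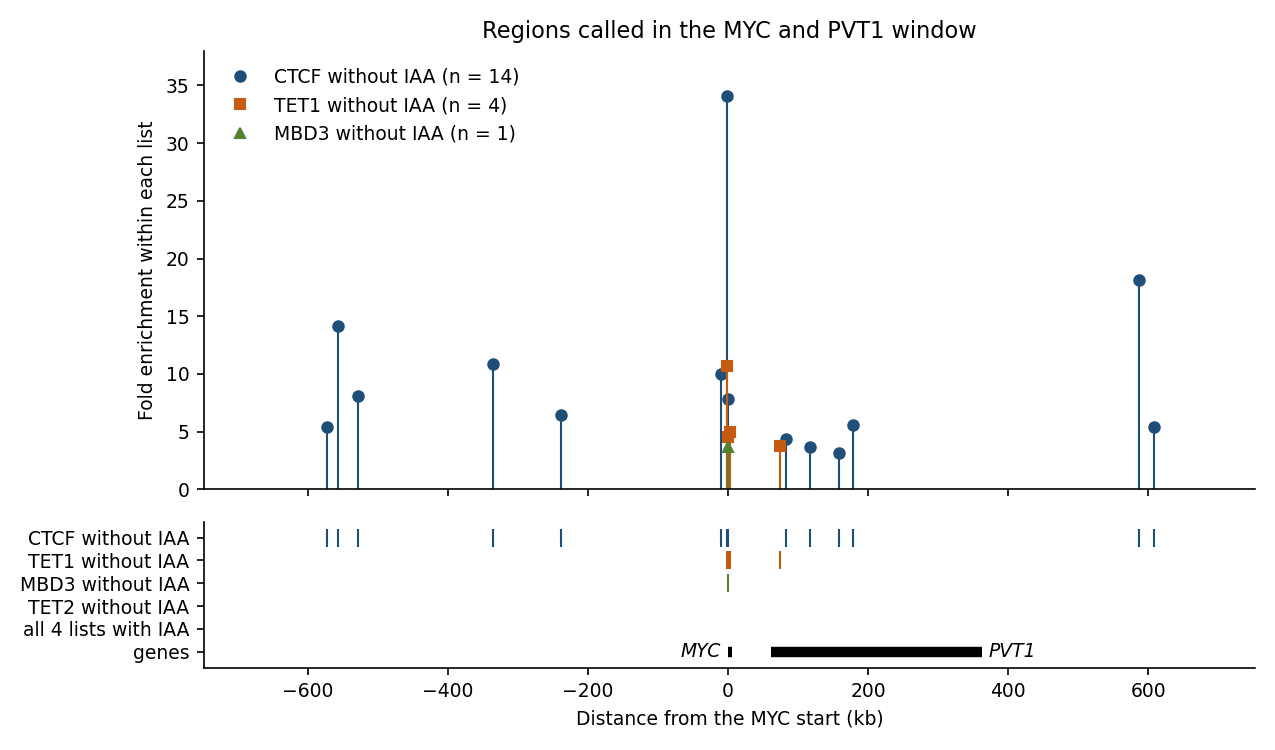
Regions called in the window, by distance of the summit from the MYC start in kb (horizontal). The upper panel gives the authors' fold enrichment of each region in its own list for CTCF (n = 14), TET1 (n = 4) and MBD3 (n = 1) without IAA. The lower panel marks the same summits by list above the spans of MYC and PVT1. The CTCF region of 34.1-fold stands beside MYC, the 4 CTCF regions inside PVT1 lie between 3.15- and 5.54-fold, and the lanes for TET2 and for the 4 lists with IAA are empty.

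The strongest CTCF region of the window lay just upstream of MYC. It spanned 128746157 to 128746579, about 2 kb before the MYC start, at 34.1-fold enrichment. It ranked 4710 of 42925 by fold, in the top 11% of the CTCF list. By −log10 q, at 267, it ranked 742. It was 423 bp wide, where the median CTCF region was 276 bp. The next in fold was 18.1, at 129334969 to 129335241, 587 kb on the other side of MYC and beyond PVT1, which ranked 16453.

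A second CTCF region lay at the MYC start itself. It spanned 128748364 to 128748588, with its summit within 1 kb of the start, and was of modest strength, at 7.83-fold, rank 31154. The gap between it and the strong region was 1784 bp. Another region of this group, at 128738000 to 128738327, lay 10 kb upstream, at 9.97-fold, rank 26908. These 3 were the only CTCF regions of the window within 10 kb of the MYC start.

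TET1 and MBD3 were called mostly in this same stretch. Of the 19 regions of the window, 6 lay within 3 kb of the MYC start, spanning 4.1 kb from first to last edge. That span is set by the regions themselves and was taken after their positions were seen, so it supports nothing. The 6 were 2 of the 14 CTCF regions, 3 of the 4 TET1 regions and the 1 MBD3 region. From upstream to downstream they came in the order CTCF with TET1, then MBD3, then CTCF with TET1, then TET1 alone.

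**Figure D2:**
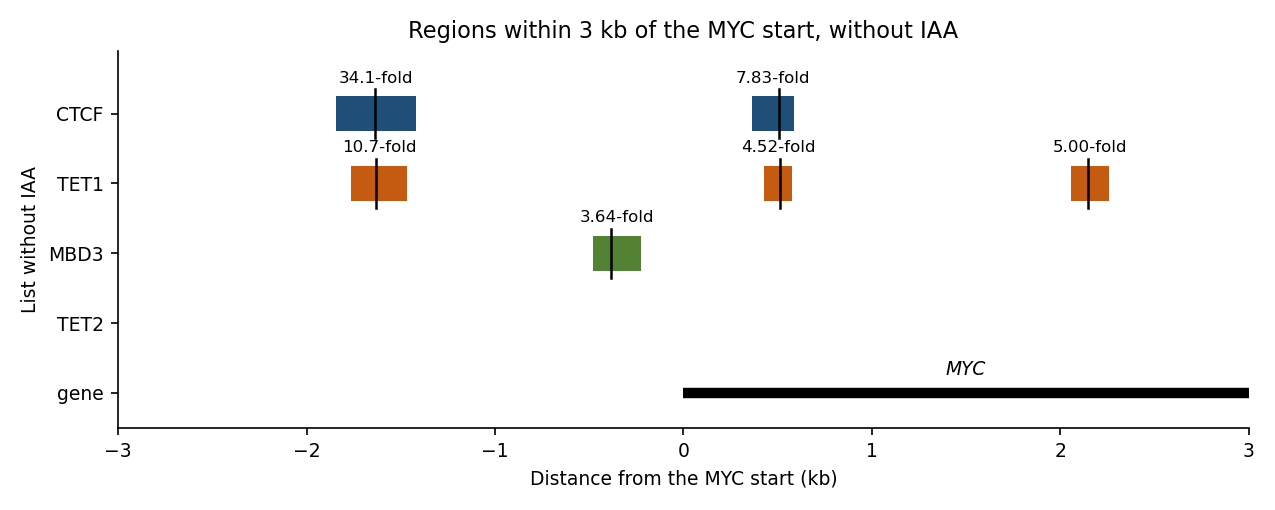
The 6 regions within 3 kb of the MYC start without IAA, drawn to scale by distance in kb from that start, which is known here to the nearest kb. Each box is a region, the black line across it is its summit, and the number is its fold in its own list. TET1 summits lie within 7 bp of both CTCF summits, the MBD3 region of 3.64-fold falls between the CTCF regions, and a TET1 region of 4.999-fold, drawn as 5.00, stands alone to the right.

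TET1 sat on both CTCF regions at MYC. At the strong upstream region the TET1 region spanned 128746238 to 128746534, at 10.7-fold, rank 2957 of 16246 in the TET1 list by fold and 449 by −log10 q (52.98). Its summit was 7 bp from that of CTCF. At the MYC start TET1 spanned 128748428 to 128748578, at 4.52-fold, rank 14014, and −log10 q of 4.74, with its summit 4 bp from that of CTCF. This call is lost when −log10 q of at least 5 is required, which leaves TET1 at 1 of 13 CTCF regions of the window, or 7.69%. In the whole list the median of this distance was 7 bp over the 14798 TET1 regions at CTCF. Of the pair, the stronger TET1 region was at the stronger CTCF region.

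The other 2 TET1 regions lay away from CTCF. One spanned 128750057 to 128750256, 2 kb inside MYC, at 4.999-fold, rank 13085 in the TET1 list and rank 314 of the 1448 TET1 regions away from CTCF. The nearest CTCF region, the one at the MYC start, was 1468 bp off. Of those 1448 regions, 17.5% had CTCF within 2 kb. The other spanned 128822037 to 128822184, 74 kb downstream of the MYC start and about 10 kb inside PVT1, at 3.77-fold, rank 15262, with the nearest CTCF region 8.37 kb off. The median of TET1 regions away from CTCF was 4.22-fold, so the first of these was above it and the second below. Of the 4 TET1 regions, 2 were at CTCF, or 50% (Wilson 95% interval 15% to 85%), against 91.1% of all TET1 regions. With 4 regions this share is known only roughly, and it is not matched for TET1 strength. The regions at the MYC start, inside MYC and inside PVT1 stood at 86.3%, 80.5% and 93.9% of the TET1 list by fold, counted from the strongest. Across the genome TET1 regions away from CTCF were the weaker ones, with the median of 4.22-fold against 7.32-fold in the whole list.

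The MBD3 region was weak and touched neither CTCF nor TET1. It spanned 128747519 to 128747776, with its summit within 1 kb of the MYC start, at 3.64-fold and −log10 q of 1.79, not far above the 1.3 at which the lists end. It ranked 6244 of 6608 by fold. The CTCF region upstream of it was 939 bp off and the one downstream 587 bp. Across the genome 56.4% of MBD3 regions shared a base with CTCF and 57.1% with TET1. Of the 2881 MBD3 regions away from CTCF, 10.3% had CTCF within 2 kb, and the median fold was 5.00.

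Seen from CTCF, most sites of the window carried none of the other proteins. TET1 was called at 2 of the 14, or 14.3% (4.01% to 39.9%), against 34.4% of all CTCF regions. MBD3 was called at 0 of 14, against 8.67%, and TET2 at 0 of 14, against 1.10%. A count of 0 of 14 allows a share of up to 21.4%, and these intervals and limits cover counting error over regions only. None of the 3 proteins was called at 12 of the 14, or 85.7% (60.1% to 96.0%), against 64.4% in the whole list. Nearest outside the window TET2 was called without IAA at 126307118 to 126307286, 2.44 Mb upstream of the MYC start, and at 131314836 to 131315013, 2.57 Mb downstream. At the density of that list on chromosomes 1 to 22 and X, a window of this length would hold 0.64 TET2 regions. The absence of TET2 therefore does not set the locus apart. The same reckoning gives 7.97 TET1 and 3.25 MBD3 regions, where 4 and 1 were called.

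CTCF regions of like strength across the genome gave nearly the same number with TET1, though 14 regions allow a wide range. When each of the 14 regions was given the TET1 share of its own decile of the CTCF list by fold, the sum was 2.16 regions, or 15.4%, where 2 were found. The same sum was 0.475 regions for MBD3 and 0.247 for TET2, where 0 were found. The 2 regions with TET1 came from opposite parts of the range. In the decile that holds the strong upstream region, 85.5% of CTCF regions had TET1 and 18.4% had MBD3. In the decile that holds the region at the MYC start, 4.26% had TET1. The 5 window regions that were stronger than the one at the MYC start but had no TET1 had folds of 18.1, 14.1, 10.9, 9.97 and 8.10, and their deciles had TET1 at 41.9%, 21.0%, 10.4%, 4.94% and 4.26%. TET1 calls in the window did not follow the order of CTCF fold, but this rests on the weak TET1 call at the MYC start. That call, at 4.52-fold with −log10 q of 4.74, is lost when a threshold of 5 is set on either value. The strongest CTCF region of the window is then the only one with TET1.

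**Figure D3:**
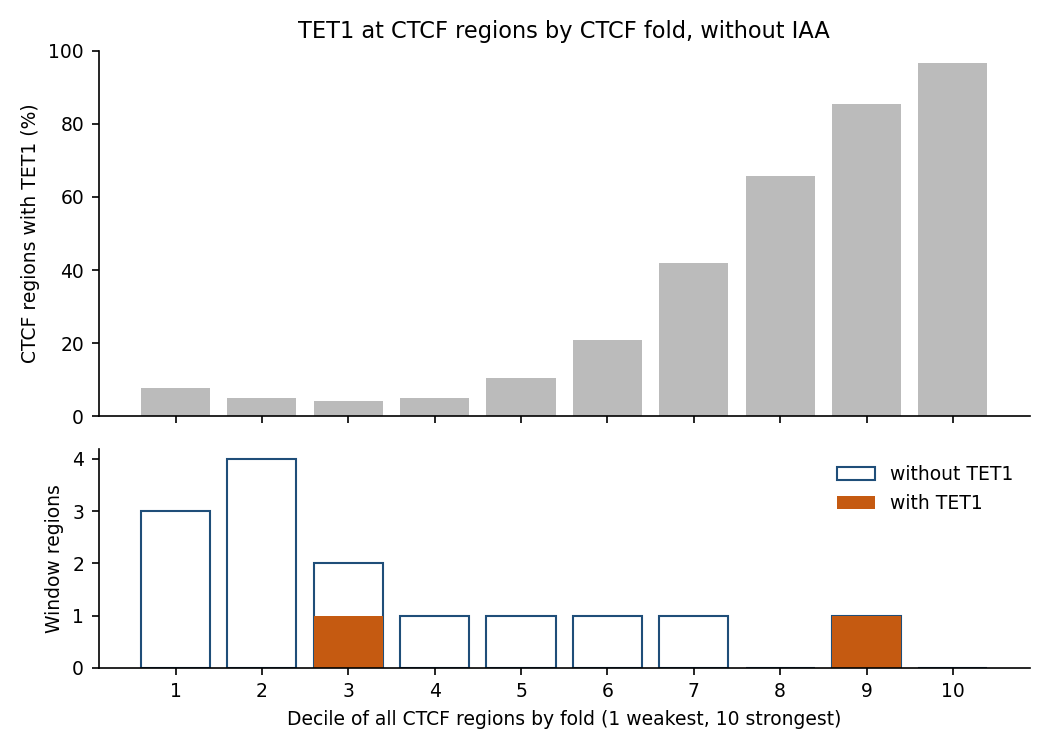
The share of all CTCF regions with TET1 without IAA, in percent, by decile of CTCF fold (upper panel), and the number of the window's 14 CTCF regions in each decile, filled where TET1 was called (lower panel). The 2 with TET1 stand in deciles 3 and 9, where the whole list has 4.26% and 85.5%.

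CTCF inside PVT1 was weak at every site. Of the 4 regions, the first lay at 128830557 to 128830746, 83 kb from the MYC start, at 4.4-fold, rank 40061 of 42925. The next lay at 128864349 to 128864564, 116 kb from it, at 3.67-fold, rank 41586. The one after it lay at 128906968 to 128907135, 159 kb from it, at 3.15-fold, rank 42469, and was the weakest CTCF region of the window. The last lay at 128926710 to 128926930, 179 kb from it, at 5.54-fold, rank 37303. By fold the first 3 were weaker than all 10 CTCF regions of the window outside PVT1, and the last was above the lowest of those, at 5.44. By −log10 q this order did not hold throughout. The regions at 128864349 and 128926710, at 5.43 and 10.3, were above the lowest of those 10, at 5.35. TET1, MBD3 and TET2 were called at none of the 4. These regions lie in the weakest 2 deciles of the CTCF list by fold. There TET1 was called at 7.87% and 5.06% of CTCF regions, MBD3 at 4.75% and 1.54% and TET2 at 4.22% and 1.77%. The shares are so low that none of 4 does not set PVT1 apart. The first 20 kb or so of PVT1 held no CTCF region, and neither did the last 180 kb.

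A long stretch without CTCF ran from inside PVT1, over its last 180 kb or so, to beyond the gene. From the last region inside the gene to the next, at 129334969, the gap was 408 kb, the longest in the window. Gaps at least as long made up 1.75% of the 42277 between neighbouring CTCF regions on chromosomes 1 to 22 and X, and 44 of the 1821 on chromosome 8. This gap was picked as the longest of the 13 inside the window, so a share of single gaps does not show that it is rare. How often a window of this length meets such a gap was not tested. The region that ends it, described above at 18.1-fold, was followed by a weak one at 129356335 to 129356567, 608 kb from the MYC start, at 5.44-fold, rank 37502. Neither had TET1, MBD3 or TET2. In their deciles of the CTCF list by fold, TET1 was called at 41.9% and 5.06% of regions, MBD3 at 3.52% and 1.54% and TET2 at 0.373% and 1.77%.

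On the upstream side of MYC, the side of POU5F1B and CCAT1, 5 CTCF regions lay more than 200 kb from MYC. They stood at 128175136 to 128175304, 573 kb upstream of the MYC start (5.44-fold, rank 37488), and at 128190833 to 128191054, 557 kb upstream (14.1-fold, rank 20707). Another stood at 128219269 to 128219501, 529 kb upstream (8.10-fold, rank 30418), and so formed a group of 3 with these. The others stood alone, at 128412971 to 128413232, 335 kb upstream (10.9-fold, rank 25280), and at 128508733 to 128508896, 239 kb upstream (6.47-fold, rank 34668). None of the 5 had TET1, MBD3 or TET2. In their deciles of the CTCF list by fold, in this order, TET1 was called at 5.06%, 21.0%, 4.26%, 10.4% and 5.06% of regions. The shares in these deciles were 0.862% to 1.54% for MBD3 and 0.396% to 1.77% for TET2. Between the last of them and the region 10 kb before MYC was a gap of 229 kb, and 5.55% of gaps on chromosomes 1 to 22 and X were at least as long. This gap, too, was picked for its length. The median gap inside the window, without the gaps across its edges, was 33.6 kb, against 40.8 kb on chromosome 8 and 33.1 kb on chromosomes 1 to 22 and X.

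The edges of the window fell in gaps. Just outside it the nearest CTCF regions lay at 127888794 to 127889401, 859 kb upstream of the MYC start, at 53.7-fold, and at 129701295 to 129701555, 953 kb downstream, at 11.2-fold. The first of these had a higher fold than any region of the window, though its −log10 q of 218.5 was below the 267 of the region upstream of MYC. It overlapped TET1 and MBD3 regions, at 13.2- and 4.66-fold in their lists.

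Fold and −log10 q ordered the window's CTCF sites in much the same way, with a Spearman correlation of 0.95 over the 14 regions. These share 1 library pool and are described without a test. Only 5 of the 14 held the same place in the 2 orders. Both values rise with the reads at a site. The strong upstream region stood out more by −log10 q. In its decile by fold it ranked 105 of 4293, in the top 2.45%, where the median −log10 q was 112. Of the 14 regions, 9 were in the upper part of their decile by −log10 q, split at its middle rank, and 5 in the lower part.

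**Figure D4:**
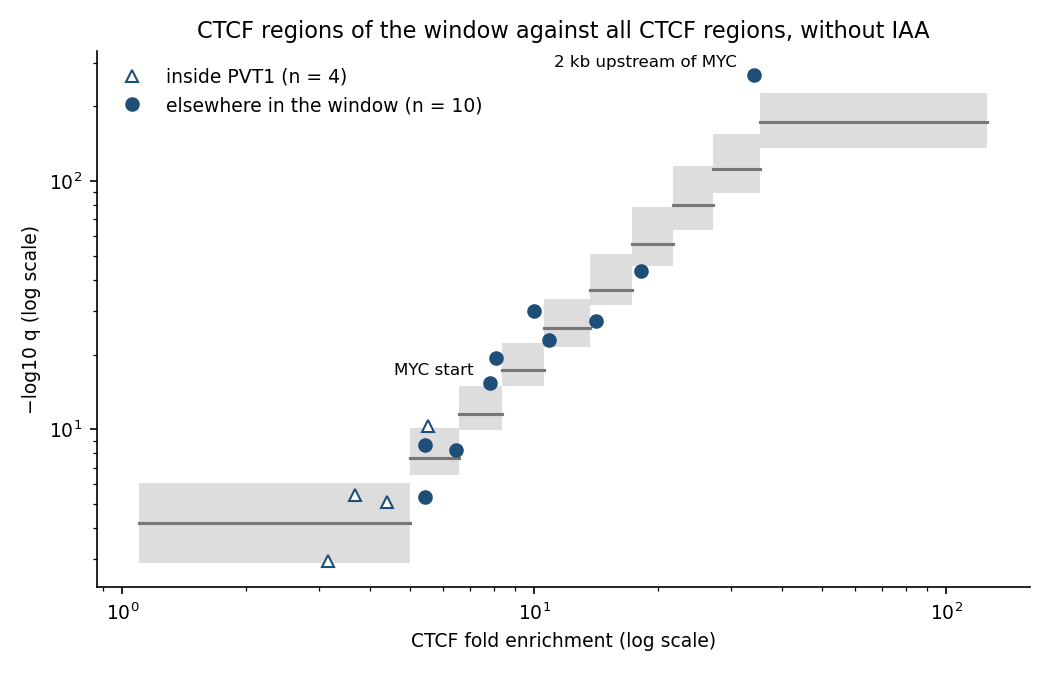
−log10 q against fold for the 14 CTCF regions of the window without IAA, both on log scales, with open triangles inside PVT1 and filled circles elsewhere. Each grey block spans 1 decile of all CTCF regions by fold and the quartiles of −log10 q in it, with the median as a line. The region 2 kb upstream of MYC, at 34.1-fold and 267, lies above the block of its decile.

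With IAA every call in the window was gone. Of the 14 CTCF regions 0 were called with IAA, where 0.126% of all CTCF regions were. The 26 regions still called among the 4711 that were at least as strong as the one upstream of MYC make 0.552%, and that region was not among them. Of the 4 TET1 regions 0 were called with IAA, against 0.222% of all TET1 regions, and the MBD3 region was not called, against 0.182% of all MBD3 regions. The shares in the whole lists are so low that 0 of 14, 0 of 4 and 0 of 1 do not set the locus apart. The region with IAA nearest to the MYC start in the CTCF list lay 95.3 Mb off, in the MBD3 list 85 Mb off and in the TET1 list 10.2 Mb off. TET2, the longest of these lists, had its nearest region at 130409740 to 130409897, 1.66 Mb downstream of the MYC start, at 5.58-fold. At the density of that list on chromosomes 1 to 22 and X, a window of this length would hold 1.43 TET2 regions. How many reads stand behind each list is unknown, and this bears on how many weak regions reach the threshold in each.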

How the data were processed

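ChIP-seq of CTCF, MBD3, TET1 and TET2 and inputs gave 30 samples in 10 groups of 3, assigned by title. The 8 deposited narrowPeak lists pool the 3 samples of a group, per the file headers' peak names. The submitters' processing notes name MACS2 2.1.2, Bowtie2 2.3.4, bedtools 2.25.0, SAMtools 1.9 and FastQC 0.11.7, with hg19 as build and no step for any. What served as control is not stated in the labels or files. The authors deposited fold enrichment, a ratio per peak, and −log10 of the q-value, with q of 0.05 or less.

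Rows of 1 list sharing 1 bp were joined, keeping the highest fold and −log10 q. Regions sharing 1 bp were counted as shared. Coordinates count from 1. Shares carry Wilson 95% intervals, and a count of 0 is limited at 3 counts. No test was made, since no list has replicates. The members and lists were chosen with earlier results of these data known. All 19 regions were described, as the rule for named regions took nearly all. Of 18 neighbouring genes looked up by symbol in RefSeq, 17 matched. No sequence is printed. Scripts used Python 3.11.15, numpy 2.4.6, scipy 1.17.1 and matplotlib 3.10.9 and were tested on simulated data.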

Additional observations from a re-analysis of the deposited data

How the results depend on the processing

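The counts depend on the threshold most. With −log10 q of at least 5, TET1 went from 4 regions to 2, without those at the MYC start and inside PVT1, and MBD3 from 1 to 0. With −log10 q of at least 10, CTCF went from 14 to 8, TET1 to 1 and MBD3 to 0, and with fold of at least 5 TET1 was at 1 and MBD3 at 0. In both of the last settings the TET1 region left was the one upstream of MYC, and the share of TET1 at CTCF was 100%. With the fold threshold this rests on the TET1 region inside MYC, which at 4.999-fold fell just short of it. Narrowing the window by 250 kb on each side left 9 CTCF regions. By −log10 q the strongest CTCF region ranked 742 in place of 4710. The other 80 of 91 values recomputed, over 8 settings, which also included 50% overlap of both regions, summits within 200 bp and single rows, moved by less than 1.5 times for a count or rank, stayed within the Wilson interval for a share and within the quartiles for the median. Many of these 80 could not move, so their number says little. A count of 0 stays 0 where a setting only removes rows. Every region of the window was a single row already, so leaving rows unjoined changed nothing. The Wilson intervals were also wide, as with 15% to 85% for TET1 regions at CTCF. Shares that had no region left could not be given. No paired analysis was possible because each list pools the 3 samples of its group. Leaving out a replicate was not possible for the same reason.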

Other observations

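The grouping of regions at the MYC start was set beside the rest of the genome after its positions were seen, so the counts describe it and support nothing. When regions of the 4 lists without IAA were chained wherever they lay within 2 kb of each other, 43737 groups resulted, and the 6 regions at MYC formed 1 of them. Groups of at least 6 regions numbered 115, or 0.263%. The 6 at MYC include the MBD3 region, at −log10 q of 1.79, and the TET1 region at the MYC start, at 4.74. Both are lost at a threshold of 5, so the group of 6 rests on weak calls. Groups were not recomputed at that threshold. At least 2 CTCF, 3 TET1 and 1 MBD3 regions, a make-up read off the group at MYC, were found in 21 groups. The one at MYC was the only one of these on chromosome 8. With 1 kb in place of 2 kb the group at MYC held 5 regions, without the TET1 region inside the gene, so it no longer had 3 TET1 regions. At 1 kb, 6 groups of the genome had at least 2 CTCF, 3 TET1 and 1 MBD3 regions, and 0 of these were on chromosome 8.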
